A study of Drosophila melanogaster with 2 samples.

Results

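The calls described here are 3379 regions of the Drosophila melanogaster genome that ranked below the strong binding sites of CG32772 in both libraries of a chromatin immunoprecipitation experiment, and that lay at overlapping positions in both. They were chosen by the authors' signal value. Each library's calls on the assembled chromosomes (X, Y, 4 and both arms of 2 and 3) were ranked from the strongest down, and a replicate 1 call of ranks 5001 to 20000 was kept when a replicate 2 call of those ranks overlapped it by at least 1 bp and it touched no peak of any of the 4 thresholded lists. Of 15000 replicate 1 calls of these ranks, 3742 (24.9%) were overlapped by such a replicate 2 call, 363 of those touched a thresholded peak, and the other 3379 are called shared calls below. They made up 24.3% of the 13926 replicate 1 calls of these ranks that lay off thresholded peaks, and the other 10547 are called unshared calls. The material was whole embryos, 0 to 24 h old, from a transgenic line that carries CG32772 fused to eGFP, and an antibody against eGFP recovered the chromatin, in 2 biological replicates of 1 group. No library of another condition or untagged line was analysed here, whole embryos mix all cell types, and the promoter and level of the transgene are not given. All positions are on the dm6 assembly.

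In ChIP-seq, fragments crosslinked to a protein are recovered with an antibody, and a peak caller lists places where fragments pile up above control DNA. A call list is run far below the level of credible binding on purpose, because the irreproducible discovery rate (IDR) procedure compares the ranks of calls between replicates and looks for the depth at which they stop agreeing. Calls under that depth can include weak binding as well as fluctuations of coverage, and the coverage of sequencing libraries is known to vary with GC content.

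The windows at the summits (the summit base of the authors' call with 50 bp on each side) show how unlike the sequences of the shared calls are. The first 5 sequences are from among the shared coding exon calls of lowest summed rank over both libraries. Each has a window that was wholly coding sequence. They are a selection, since the calls in wde, CG2121 and sns had lower summed ranks than that in TkR86C and are not printed. The last 3 are those of lowest summed rank in introns or between genes. All are on the plus strand of dm6 from the RefSeq copy of the assembly, written with every G and C in capitals. The coding windows lay in a coding exon of nub that is inside the body of Ref2 as well (chr2L:12613849-12613949), Fbxl7 (chr3R:15930289-15930389), Sur-8 (chr3R:17399232-17399332), Dhc1 (chr3R:9667166-9667266) and TkR86C (chr3R:10750147-10750247). The others were intergenic, at the centromere side of 3L (chr3L:24649247-24649347), towards the tip of 3L (chr3L:613543-613643) and on X (chrX:23326887-23326987).
Ref2 and nub: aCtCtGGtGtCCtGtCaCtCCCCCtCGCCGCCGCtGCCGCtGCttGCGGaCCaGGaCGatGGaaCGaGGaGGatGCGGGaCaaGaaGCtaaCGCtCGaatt
Fbxl7: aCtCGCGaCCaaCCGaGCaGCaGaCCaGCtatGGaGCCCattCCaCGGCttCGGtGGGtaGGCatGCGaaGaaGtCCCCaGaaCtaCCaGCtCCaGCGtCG
Sur-8: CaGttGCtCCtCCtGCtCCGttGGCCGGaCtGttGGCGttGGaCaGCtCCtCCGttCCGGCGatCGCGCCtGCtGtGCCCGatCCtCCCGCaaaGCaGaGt
Dhc1: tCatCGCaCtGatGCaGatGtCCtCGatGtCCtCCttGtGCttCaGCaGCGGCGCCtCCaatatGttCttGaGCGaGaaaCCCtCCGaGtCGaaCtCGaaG
TkR86C: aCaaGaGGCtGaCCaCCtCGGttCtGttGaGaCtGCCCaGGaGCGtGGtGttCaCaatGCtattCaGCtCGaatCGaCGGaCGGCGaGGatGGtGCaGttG
Proximal 3L: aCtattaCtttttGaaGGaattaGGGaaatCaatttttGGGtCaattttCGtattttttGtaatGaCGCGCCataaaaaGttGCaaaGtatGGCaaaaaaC
Distal 3L: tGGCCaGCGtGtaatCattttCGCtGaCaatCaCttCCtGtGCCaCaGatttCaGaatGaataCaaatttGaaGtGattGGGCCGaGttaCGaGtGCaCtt
X: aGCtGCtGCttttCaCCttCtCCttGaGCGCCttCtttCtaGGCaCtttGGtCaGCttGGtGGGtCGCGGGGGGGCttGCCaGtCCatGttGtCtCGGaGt
The coding windows held 54.5% to 65.3% G and C. The intergenic ones ran from 30.7% on proximal 3L, with its runs of T and A, through 43.6% on distal 3L to 57.4% on X.

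The signal of the shared calls was low and nearly flat. It had a median of 26.8 in replicate 1 (lowest 22.8, highest 36.1) and of 26.7 in replicate 2 (22.3 to 38.9), against medians of 77.6 and 77.8 for each library's own thresholded arm peaks. These ranges are set by the rule. At its edges, replicate 1 calls of ranks 5000 and 5001 both had a signal of 36.16, and those of ranks 20000 and 20001 both 22.77. In replicate 2 the values were 38.96 on either side of the upper edge and 22.33 on either side of the lower edge, so neither edge falls at a break in the signal. The authors' q-values were far from the usual threshold in both libraries, with a median of 0.713 and a lowest value of 0.296 in replicate 1, and a median of 0.716 and a lowest value of 0.172 in replicate 2. 

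Overlap between the libraries fell with rank. Of replicate 1 calls of ranks 1 to 5000, 94.9% were overlapped by some replicate 2 call of any rank. The share was 67.2% for ranks 5001 to 20000 and 47.3% below rank 20000. Among unshared calls, 5636 (53.4%) were overlapped by a replicate 2 call of another rank, so "unshared" means not matched within the rank band and not absent from the other library. Replicate 2 had 77048 calls on the arms, and the share of arm bases that all of them cover was not computed. How much of these any-rank overlaps would arise from that coverage alone was therefore not tested. Summits of replicate 1 calls of these ranks fell inside replicate 2 calls of these ranks in 22.3% of cases, and those replicate 2 calls covered 3.49% of arm bases. The summits of a shared pair lay a median of 52 bp apart (quartiles 16 and 107 bp), with 49.5% of pairs within 50 bp, and every shared call was 320 bp wide. A joint ranked call overlapped 3357 of the shared calls, at a median rank of 9029 in that list (quartiles 7089 and 12163). Within the shared calls, the ranks in the 2 libraries were nearly unrelated (Spearman rho -0.0316), as were the log10 signals (Pearson r -0.0575). The order by summed rank used below is therefore not one on which the libraries agreed.

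**Figure D1:**
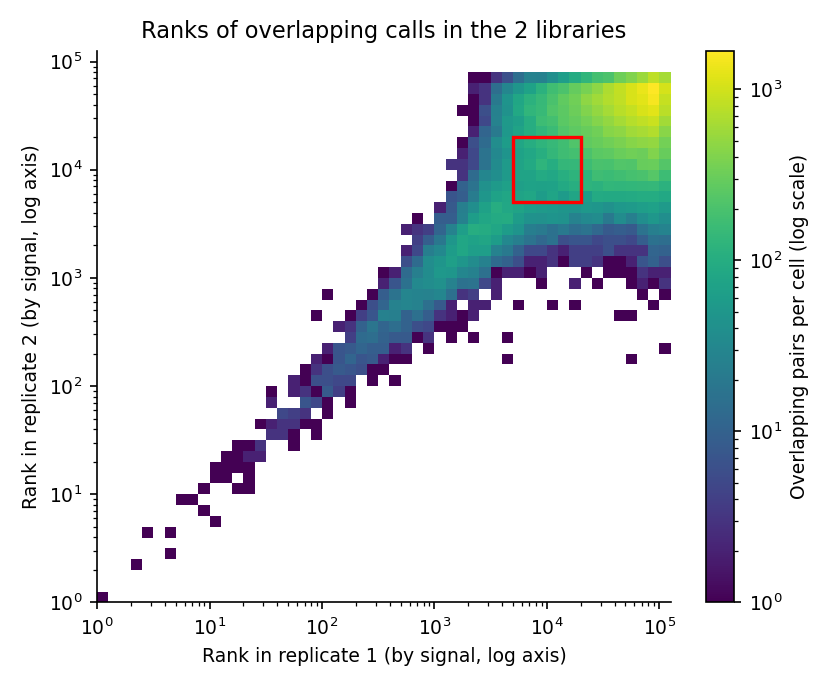
Rank in replicate 1 (x axis) against the rank of the highest-ranked overlapping call in replicate 2 (y axis), both on log axes with rank 1 strongest; colour gives the number of overlapping pairs per cell and the red square marks ranks 5001 to 20000 in both libraries, before calls on thresholded peaks were left out. The strongest calls lie along a diagonal, and the square, which is the band the calls were selected on, lies beyond it.

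The shared calls held many more coding exons and fewer promoters than the thresholded peaks. By their summits, 491 of 3379 (14.5%, exact 95% interval 13.4 to 15.8) lay in coding exons, against 51 of 4699 joint thresholded arm peaks (1.09%, 0.809 to 1.42) and 12.8% of arm bases. Promoters (within 500 bp of an annotated transcription start site, and first in the order of classes) held 660 shared calls (19.5%, 18.2 to 20.9), against 42.8% of thresholded peaks and 13.3% of arm bases. In 2-sided Fisher's exact tests adjusted over 14 comparisons of 7 classes, the coding share had an odds ratio of 15.5 against the thresholded peaks (adjusted p = 1.5e-133) and the promoter share one of 0.324 (adjusted p = 1.1e-109). Introns held 1286 shared calls (38.1%), near their 39.1% of arm bases and the 38.7% of thresholded peaks (adjusted exact p = 0.693). Intergenic sequence held 803 (23.8%), more often than for thresholded peaks (15.3%, adjusted exact p = 5.9e-21). The small classes were 3' UTRs with 74 shared calls (2.19%, against 0.873% of thresholded peaks, adjusted exact p = 3.1e-06), 5' UTRs with 37 (1.095% against 0.532%, adjusted exact p = 0.0124) and non-coding exons with 28 (0.829% against 0.766%, adjusted exact p = 0.861). Calls are not replicates of a condition, and neighbouring ones are not independent, so these p-values and intervals cover counting error only.

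Against unshared calls of the same ranks the contrast ran the other way for coding exons. These held 2223 of 10547 unshared calls (21.1%, 20.3 to 21.9), more than the 14.5% of shared calls (odds ratio 0.637, adjusted exact p = 3.4e-17), and promoters held 13.0% of unshared against 19.5% of shared calls (odds ratio 1.62, adjusted exact p = 3.1e-19). Put per class, 32.5% of the replicate 1 promoter calls of these ranks were shared (30.4 to 34.6), 25.4% of intronic calls, 22.8% of intergenic calls and 18.1% of coding exon calls (16.7 to 19.6). Intronic and intergenic shares differed less (adjusted exact p = 0.0336 each), and the UTR and non-coding exon shares missed the threshold (adjusted exact p = 0.352, 0.618 and 1). Both differences were smaller when taken from replicate 2. Its partner calls lay in coding exons in 14.9% of cases and in promoters in 19.5%, against 17.3% and 17.1% of its own unshared calls (adjusted exact p = 0.00307 for each).

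**Figure D2:**
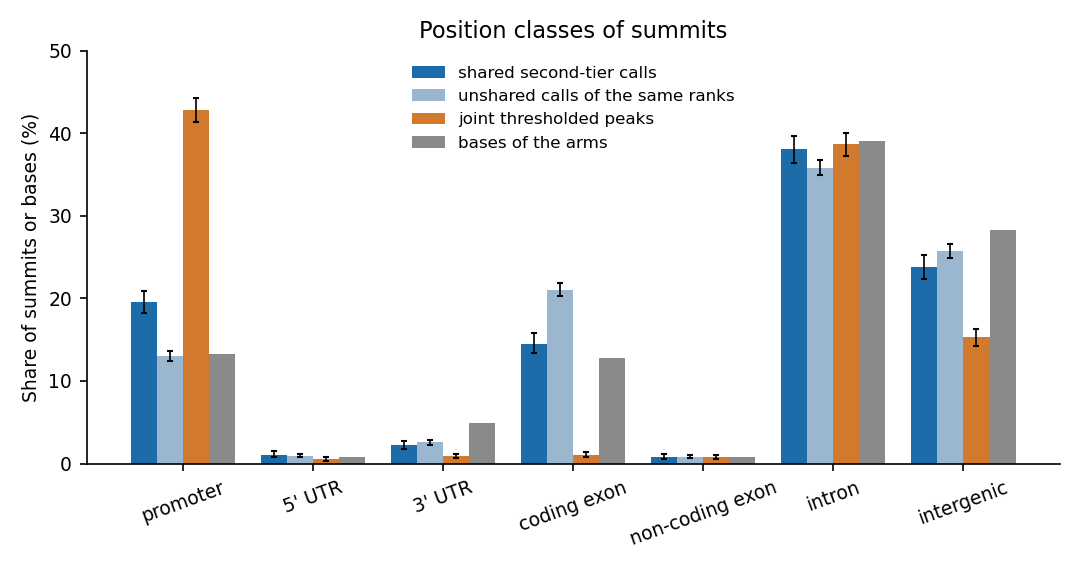
Share of summits in each position class (y axis, percent) for the 3379 shared calls, the 10547 unshared calls of the same ranks and the 4699 joint thresholded peaks, with exact 95% binomial intervals, beside the share of arm bases. The shared calls stood between the unshared calls and the thresholded peaks for promoters (19.5%, 13.0% and 42.8%) and for coding exons (14.5%, 21.1% and 1.09%).

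The coding exon share changed little within the band of ranks. In replicate 1 it was 14.6% of 560 shared calls of ranks 5001 to 7500, 14.7% of 660 of ranks 7501 to 10000, 14.6% of 1131 of ranks 10001 to 15000 and 14.3% of 1028 of ranks 15001 to 20000. The promoter share was 23.2%, 17.6%, 20.3% and 17.9% in the same order. The share of off-peak calls that were shared fell from 29.5% in the first of these bands to 20.9% in the last. The exons that held shared calls had a median length of 736 bp, against 764 bp for unshared calls and 834 bp for the coding bases of the arms, each base counted with the length of its exon. Annotated transposable elements held 19 summits (0.562%), against 1.11% of unshared calls and 0.255% of thresholded peaks, although they fill 5.91% of arm bases. Shared calls lay a median of 8269 bp from the nearest thresholded summit (quartiles 3017.5 and 21108.5 bp), and unshared calls 11498 bp. Under 1 kb there were 257 shared calls (7.61%), against 5.29% of unshared calls.

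The shared coding exon calls of lowest summed rank were spread over genes of many kinds. The call in nub, a POU-domain transcription factor gene, and Ref2 had a signal of 35.3 in replicate 1 and 30.7 in replicate 2. The call in Fbxl7, which encodes an F-box protein, had 35.67 and 30.01. Sur-8, a leucine-rich scaffold of Ras signalling, had 31.3 and 33.6, with summits 3 bp apart. Of the 15, 12 were higher in replicate 1, but Sur-8, the dynein heavy chain gene Dhc1 (29.8 and 36.7) and the nuclear receptor gene Hr96 (30.4 and 34.6) were higher in replicate 2. The call in sns, an adhesion protein of fusing myoblasts, had 32.6 and 32.0, its summits fell on the same base, and its window was 76.2% G and C. TkR86C, a receptor of the tachykinin family, had 34.9 and 30.2. The others were in wde, a partner of a histone H3 lysine methyltransferase, in msk (an importin), Pdp1 (a PAR-domain transcription factor of the circadian clock), Zasp52 (a Z-disc protein of muscle), CG2121, Ccdc85, tank and CG6484. Over these 15 calls the distance to a thresholded summit ran from 863 bp in Ccdc85 to 65655 bp in CG2121.

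The 15 shared calls of lowest summed rank over all classes held no coding exon. The first of them (3L, positions 24649137 to 24649456) was intergenic, with 34.99 in replicate 1 and 38.92 in replicate 2. It ranked 5405 and 5011, and no thresholded summit lay within 494570 bp of it. Of these 15, 6 were intergenic, 6 at promoters, 2 in 3' UTRs and 1 intronic. The promoter calls were those of Treh, the trehalase gene (34.4 and 36.5), Moe, which encodes the actin-membrane linker Moesin (32.0 and 36.6), rdgC, a phosphatase of photoreceptors (32.1 and 35.2), und (33.4 and 32.9), the transcription factor gene Sox14 (31.5 and 35.4), and CG13907 and Usp10, whose bodies both hold the summit (32.6 and 33.7). The intronic call lay in ftz-f1, a nuclear receptor gene of the ecdysone response (33.7 and 35.8), and the 3' UTR calls in qvr (35.9 and 37.0) and CG33229 (32.7 and 36.9). The libraries' values differed by at most 6.36 units of signal, and 13 of the 15 were higher in replicate 2, whose signal at the upper edge was also higher.

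The shared calls were far richer in G and C than the thresholded peaks and richer than the arms, which is a description with no test. Windows of 101 bp at their summits had a median GC content of 48.5% (quartiles 40.6 and 55.4), against 49.5% (43.6 and 55.4) for unshared calls, 33.7% (27.7 and 42.6) for thresholded peaks and 42.6% (34.7 and 49.5) for windows tiling the arms. GC content exceeded 50% in 45.5% of shared calls, 49.6% of unshared calls, 10.9% of thresholded peaks and 23.8% of tiling windows. It was under 40% in 23.3%, 16.2%, 69.4% and 42.8% of them. The shared set thus had a longer AT-rich tail than the unshared set at nearly the same median. Unshared calls here are those of replicate 1, and this contrast was not repeated from replicate 2. Shared calls lay above both tiling windows and thresholded peaks in the large non-coding classes. Unshared calls did so as well, with medians of 46.5% in introns, 50.5% at promoters and 47.5% between genes. In introns the median was 45.5% for shared calls, 32.7% for thresholded peaks and 39.6% for tiling windows. At promoters these medians were 47.5%, 33.7% and 42.6%, and between genes 48.5%, 34.7% and 40.6%. In 3' UTRs it was 53.5%, 38.6% and 35.6%. Coding exons stood at 57.4% for shared calls, 57.4% for unshared calls, 59.4% for the 51 thresholded peaks there and 53.5% for tiling windows. No read counts were analysed, so whether coverage itself followed GC content in these libraries was not tested.

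**Figure D3:**
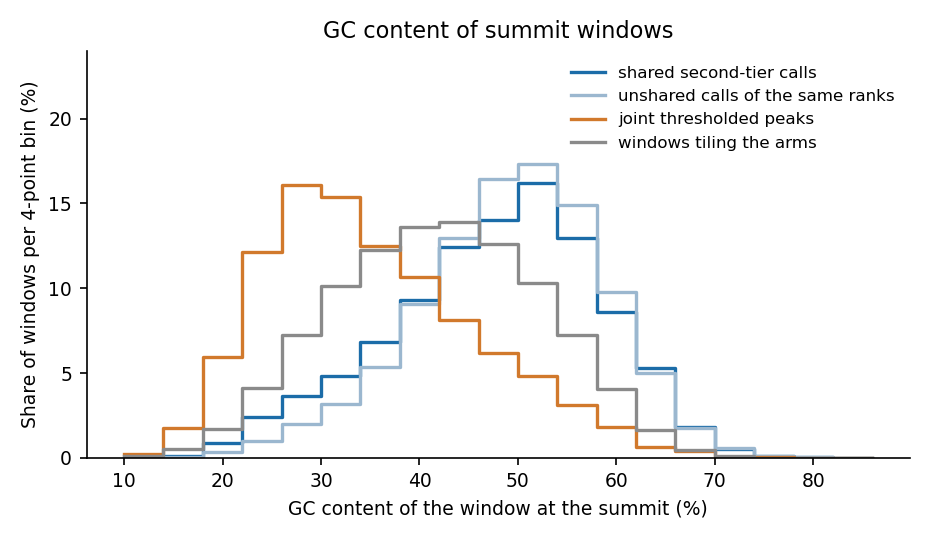
GC content of the 101 bp window at each summit (x axis, percent) against the share of windows in each bin (y axis, percent), for shared calls, unshared calls, joint thresholded peaks and windows tiling the arms. The shared and unshared calls peak near 50% and the thresholded peaks near 30%, and shared calls exceed unshared calls below 40%.

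The share of calls that were shared was lower at promoters over 50% G and C than at those under 40%. In coding exons it was higher over 50% than at 40 to 50%. This was examined after the data were seen, from replicate 1 only, and was not tested. Of all replicate 1 calls of these ranks off thresholded peaks, 41.7% (34.9 to 48.8) were shared where the window held at most 25% G and C. That share was 38.5% for 25 to 30%, 33.0% for 30 to 35%, 26.9% for 35 to 40% and from 22.0% to 25.1% in all bins above 40%. At promoters, 43.6% (38.8 to 48.4) of 429 calls under 40% were shared, 32.7% of 599 calls of 40 to 50%, and 27.6% (24.8 to 30.5) of 1004 calls over 50%. In finer bins the promoter share was 26.5% for 50 to 55% and 30.1% (19.9 to 42.0) over 65%. Introns had 30.3% under 40%, 23.4% at 40 to 50% and 24.2% over 50%, and intergenic calls 27.6%, 19.8% and 23.5%. Introns and intergenic sequence together reached 35.1% (22.9 to 48.9) of 57 calls over 65%. In coding exons 12.2% (8.94 to 16.1) of 344 calls of 40 to 50% were shared and 19.0% (17.4 to 20.7) of 2345 calls over 50%. Only 25 coding calls were under 40%, and 3 of them were shared.

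**Figure D4:**
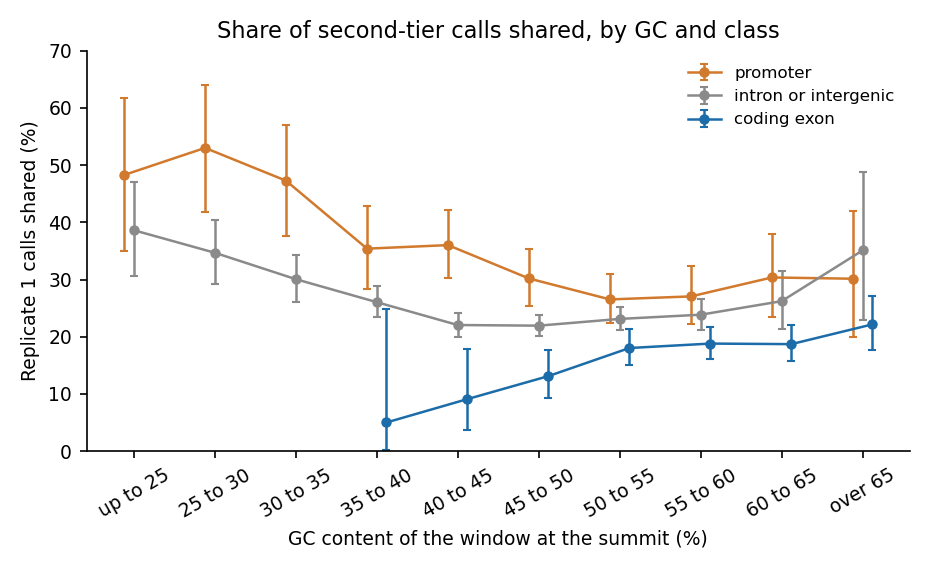
Share of replicate 1 calls of ranks 5001 to 20000, off thresholded peaks, that were shared with replicate 2 (y axis, percent, exact 95% binomial intervals) by GC content of the summit window (x axis, percent), for promoters, coding exons, and introns and intergenic sequence together; bins of under 20 calls are left out. At promoters the share is highest below 35%, where all bins exceed 47%, and in coding exons it is highest above 65%, at 22.2%.

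The highest GC contents were found mainly in coding exons. The window in norpA, the phospholipase C gene of phototransduction, was 80.2% G and C, with signals of 23.7 in replicate 1 and 23.6 in replicate 2. Behind sns came coding calls in Mur82C, inside the body of CG34357 as well (74.3%, signals 27.3 and 35.9), and in Rim, a gene of the synaptic active zone (74.3%, 23.6 and 26.0), and a promoter call at Bacc (74.3%, 31.4 and 24.3).

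Of 7 short motifs, TATCGATA and AAAAAAA stood more often in shared than in unshared calls and CAGGTAG less often, with no test made. Each was searched on both strands of the 101 bp windows, and the first 4 are known in flies as letters bound by GAGA factor (GAGAG), Zelda (CAGGTAG) and DREF (TATCGATA), and as a repeat that can encode runs of glutamine (CAGCAGCAG). A match is a description of the letters only. Unshared calls are those of replicate 1, and the contrasts with them were not repeated from replicate 2. GAGAG stood in 12.2% of shared calls, 12.9% of unshared calls, 10.6% of thresholded peaks and 11.5% of tiling windows. CAGGTAG was in 14 shared calls (0.414%), against 0.787% of unshared calls and 0.533% of tiling windows. TATCGATA was in 17 (0.503%), against 0.123% of unshared calls, 1.21% of thresholded peaks and 0.277% of tiling windows. At promoters it was in 14 of 660 shared calls (2.12%), 8 of 1372 unshared calls (0.583%), 2.59% of thresholded peaks and 0.796% of tiling windows. CAGCAGCAG was in 2.40% of shared calls, 2.12% of unshared calls, 0.383% of thresholded peaks and 0.955% of tiling windows, and in 29 of 491 shared coding exon calls (5.91%), against 4.05% of unshared coding calls, 5.88% of the 51 thresholded ones and 2.67% of coding tiling windows. AAAAAAA was in 10.8% of shared calls, between the 6.82% of unshared calls and the 21.2% of thresholded peaks, and in 1 of the 491 coding exon calls. Tiling windows held it in 8.65% of cases, so shared calls lay above that share and unshared calls below it. GGGGG was in 13.3% of shared calls and CACACAC in 4.59%, near the 12.1% and 4.47% of unshared calls, against 7.30% and 2.64% of thresholded peaks and 7.48% and 3.17% of tiling windows.

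The X chromosome held few shared calls. It had 375 of 3379 (11.1%, 10.1 to 12.2), against 17.1% of arm length, 11.3% of unshared calls and 21.1% of thresholded peaks, and replicate 2 calls of these ranks off thresholded peaks gave 13.0%. Per Mb that was 15.9 shared calls on X and 26.3 to 29.1 on 2L, 2R, 3L and 3R, of which 3R had the most (933, 27.6%). Chromosome 4 and Y each had 1. The median GC content of the shared calls was 45.5% on X and 48.5% to 50.5% on the 4 large autosomal arms, while tiling windows had 41.6% to 42.6% on all 5. The sex of the embryos is not given, and what the low number on X reflects was not tested.

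About 2 of every 3 shared calls lay inside a protein-coding gene. A gene body held the summit of 2302 (68.1%, 66.5 to 69.7), close to the 66.1% of arm bases in such bodies and to the 68.8% of unshared calls, against 60.6% of thresholded peaks. The hosts were 1627 of 13968 genes (11.6%), and 1679 genes (12%) hosted a thresholded peak. The lists had 573 genes in common, which is 35.2% of the hosts of shared calls and 34.1% of those of thresholded peaks. Most hosts (1169, 71.9%) had 1 shared call, 280 had 2, 178 had 3 or more and 47 had 5 or more, and 134 shared calls lay in more than 1 gene. Hosts were long genes. Their median length was 12.4 kb, against 2.16 kb for all genes and 11.2 kb for hosts of thresholded peaks. Of genes under 2 kb, 2.94% were hosts, of those of 10 to 20 kb 28.8%, and of those over 100 kb 83.9%. Per 10 kb of gene the number of shared calls varied much less, from 0.173 in genes over 100 kb to 0.291 in those of 20 to 50 kb.

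The genes with the most shared calls were among the longest of the genome. Rbp6, which encodes an RNA-binding protein of the Musashi family (FBgn0260943, 3L, positions 17058774 to 17238212), had 14 shared calls, 3 coding and 11 intronic, and 1 thresholded peak. Their signal ran from 22.99 to 31.03 in replicate 1 (median 26.7) and from 22.5 to 38.4 in replicate 2 (median 23.5), and the coding ones had GC contents of 73.3%, 69.3% and 65.3%, the intronic ones 25.7% to 67.3%. kirre, an adhesion gene of muscle founder cells (X, 394 kb), had 12 shared calls, 3 at promoters and 9 in introns, beside 20 thresholded peaks. Their signal ran from 23.9 to 32.0 in replicate 1 and from 22.4 to 35.6 in replicate 2. The myosin gene Myo81F (3R, 1966 kb) had 10, all intronic, which is 0.0509 per 10 kb. The splicing regulator gene mbl had 9 and the Piezo-like channel gene Pzl 8, all intronic. Unshared calls outnumbered shared calls over the arms as a whole (10547 against 3379), and they did so in each of these genes. There were 23 in Rbp6, 30 in kirre, 64 in Myo81F, 12 in mbl and 40 in Pzl.

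The hosts with 6 or 7 shared calls ranged from genes with no peak of the conservative joint list to genes with 20. With 7 came mtgo (2 of them coding), the RNA-binding protein gene bru3, the RhoGAP gene cv-c, the translational repressor gene pum, and CG34370. There were 11 genes with 6. The 5 whose best shared call had the lowest summed rank were CG33158, sli, which encodes the axon guidance ligand Slit, CG1677, the corepressor gene sbb, and Pde11, a cyclic nucleotide phosphodiesterase gene. The others were Eip75B, Eip74EF, Ten-a, Nlg1, Ddr and sick, of which the last 3 were named after their values were seen. Peaks of that list numbered 0 in bru3, CG34370 and Nlg1, 1 each in sli and Pde11, 2 in Ddr and 3 in Eip74EF. There were 5 each in cv-c and CG33158, 6 each in pum and sick, 7 in Ten-a, 10 in Eip75B, 11 in mtgo, 16 in sbb and 20 in CG1677. Peaks of the other thresholded lists were not counted, and a summit of one of them lay in CG34370, 2779 bp from its coding call. Unshared calls ran from 3 each in CG1677 and Nlg1 to 33 in bru3. In sli (52.6 kb, 1.14 per 10 kb) all 6 shared calls were intronic, with signals of 23.04 to 34.69 in replicate 1 and 23.8 to 30.6 in replicate 2. CG32772 itself, the gene of the tagged protein, had no shared call in its body and 3 within 20 kb. The X chromosome, which holds this gene, had 15.9 shared calls per Mb, and whether the counts near the gene differ from that was not tested.

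**Figure D5:**
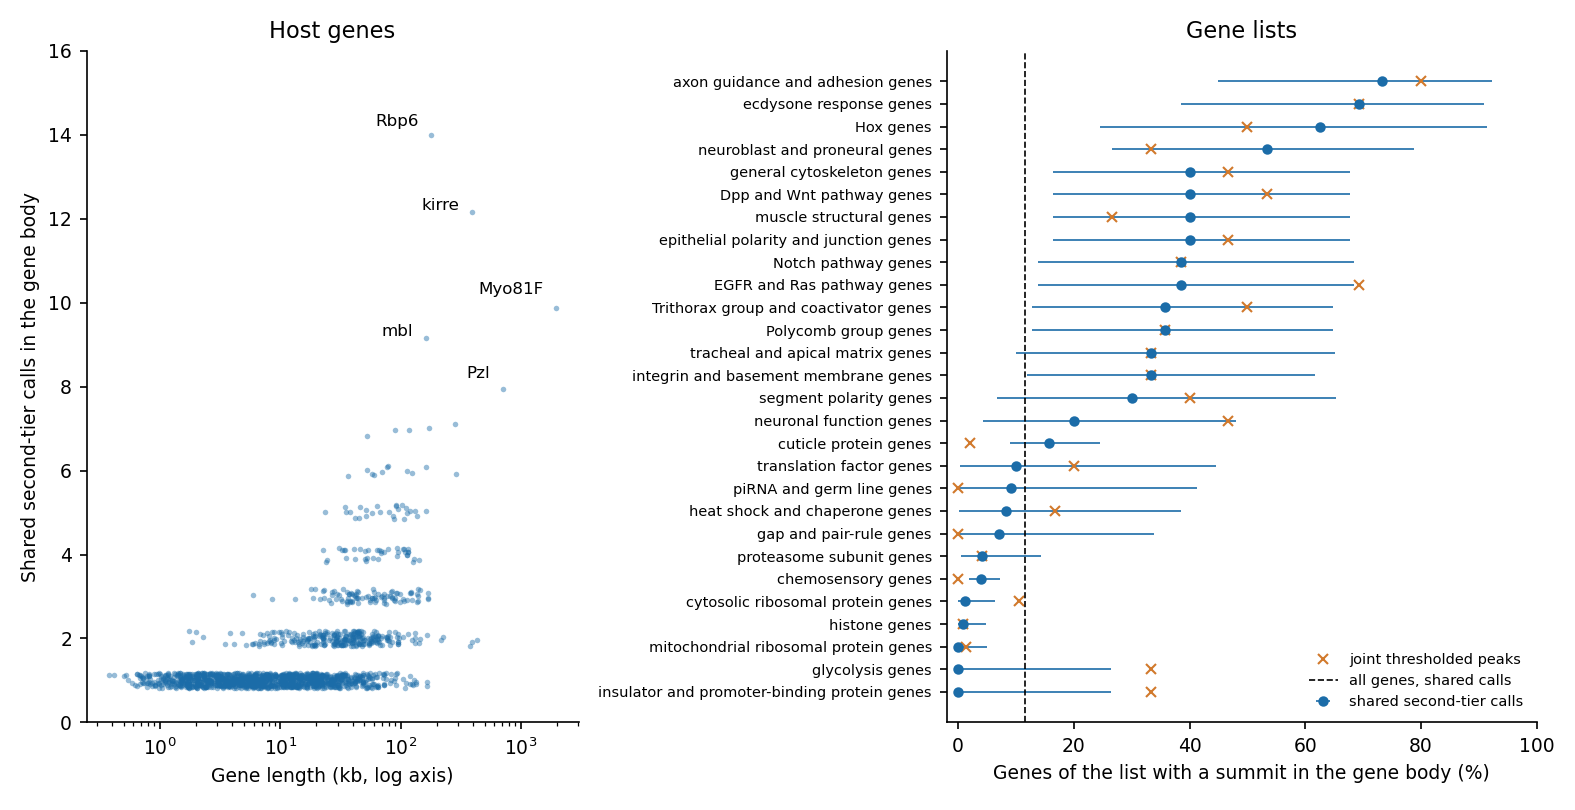
Left: length of each host gene (x axis, kb, log axis) against its number of shared calls (y axis, points spread slightly up and down to show overlaps), with the 5 genes of 8 or more named. Right: percent of the genes of each list with a shared call (blue, exact 95% binomial intervals) or a joint thresholded peak (orange crosses) in the gene body; the dashed line is the 11.6% of all genes that host a shared call.

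Gene lists of embryonic development mostly had more hosts than the 11.6% of all genes, and they were lists of long genes. Of 28 lists, 17 were above that share and 3 had no host. Thresholded peaks and unshared calls were frequent in the same lists. Of all genes, 12% hosted a thresholded peak and 26.4% an unshared call. Axon guidance genes had 12 hosts of a thresholded peak and 14 of an unshared call among 15. Ecdysone response genes had 9 and 10 among 13, and Hox genes 4 and 8 among 8. Axon guidance and adhesion genes led with 11 hosts of 15 (73.3%; median gene length 63.3 kb), among them sli and Ten-a with 6 shared calls each and Ten-m with 4. Ecdysone response genes had 9 hosts of 13 (69.2%; 39.9 kb), with 6 shared calls in Eip75B, 6 in Eip74EF and 4 in ftz-f1. Hox genes, which set segment identity, had 5 hosts of 8 (30.6 kb), with 5 shared calls in Antp and 2 each in Abd-B and abd-A. Neuroblast and proneural genes had 8 of 15 at a median length of only 3.36 kb, but the leading hosts were the long genes pros (79.1 kb, 4 shared calls), grh (41.7 kb, 4) and nub (40.5 kb, 2).

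Signalling and structural lists lay between. Dpp and Wnt pathway genes had 6 hosts of 15 (shn with 5, fz with 4 and arm with 1) against 8 for thresholded peaks, and Notch pathway genes 5 of 13, with 5 shared calls in fng, which encodes a glycosyltransferase acting on Notch, 4 in mam and 3 in kuz. EGFR and Ras pathway genes had 5 of 13 (aos, pnt and Egfr with 3 each) against 9 for thresholded peaks. Segment polarity genes had 3 of 10, with 4 shared calls in inv and 1 each in nkd and wg. Muscle structural genes had 6 of 15, led by Msp300, whose 4 shared calls included 3 coding ones, with Zasp52 and Act57B behind it. Epithelial polarity genes (crb, sdt and scrib with 2 each) and general cytoskeleton genes (zip with 3) also had 6 of 15. Integrin and basement membrane genes had 5 of 15, and in vkg, a collagen IV gene, both shared calls were coding (median GC 62.4%). Tracheal and apical matrix genes had 4 of 12 (dpy with 5) and neuronal function genes 3 of 15 (ChAT and Sh with 3 each and para with 2). Polycomb group genes (Asx with 2) and Trithorax group genes (osa, kis and skd with 2 each) had 5 of 14 each.

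Lists of housekeeping genes, and those of gap and pair-rule and germ line genes, were at or below 10% hosts, but many are lists of short genes, which host few shared calls in general. Cytosolic ribosomal protein genes had 1 host of 85 (RpS30, a promoter call), against 9 hosts of a thresholded peak. Glycolysis genes and insulator or promoter-binding protein genes had 0 hosts of 12 each, against 4 hosts of a thresholded peak each. Mitochondrial ribosomal protein genes had 0 of 73, histone genes 1 of 115 (His3.3B), proteasome genes 2 of 48 (Prosbeta2R2 and Rpn2, both coding), translation factor genes 1 of 10 (eIF5B), heat shock and chaperone genes 1 of 12 (Hsc70-4), piRNA and germ line genes 1 of 11 (AGO3), and gap and pair-rule genes 1 of 14 (opa). Among genes under 2 kb, 1 of 69 cytosolic ribosomal protein genes (1.45%), 0 of 70 mitochondrial ones, 0 of 113 histone genes and 1 of 42 proteasome genes (2.38%) were hosts, against 2.94% of all genes of that length. Unshared calls lay in 11 of these proteasome genes (26.2%), against 9.84% of all genes of that length. They lay in 3 of the cytosolic ribosomal protein genes (4.35%), 3 of the mitochondrial ones (4.29%) and 1 of the histone genes (0.885%). The counts in lists of 10 to 15 genes have wide intervals, and 0 of 12 allows a share of up to 26.5% by the exact interval.

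Cuticle protein genes, which encode the chitin-bound proteins of the exoskeleton, were short genes with a comparatively high share of hosts. A shared call lay in 15 of 96 (15.6%, 9.02 to 24.5; median length 1.09 kb), and a thresholded peak in 2 (2.08%), with none in both. Of those under 2 kb, 6 of 76 (7.89%) were hosts, against 192 of 6532 (2.94%) of all genes of that length. Unshared calls were frequent there as well, in 18 of the 76 short cuticle genes (23.7%) against 643 of 6532 (9.84%) of all genes under 2 kb, so the high share was not limited to shared calls. The 15 shared calls were 6 coding, 5 at promoters and 4 intronic. Their signal ran from 22.95 to 34.36 in replicate 1 (median 27.0) and from 22.4 to 35.8 in replicate 2 (median 25.5), and their GC content from 37.6% to 64.4% (median 52.5%). Cpr62Ba had a promoter call with 32.9 in replicate 1 and 29.5 in replicate 2, Cpr57A an intronic one with 34.4 and 25.6, and Cpr65Az a promoter call with 29.7 and 27.6. Chemosensory genes had 9 hosts of 230 (3.91%) and none of a thresholded peak, with 2 shared calls in Ir41a and 1 each in Gr22d and Obp57d. The Obp57d call is the one counted for Cpr57A, since the genes overlap.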

How the data were processed

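Binding was measured by ChIP-seq in 2 biological replicates, per the labels' protocols with sonicated fragments of 200 to 800 bp, and calls were made on dm6 against an alignment of control DNA. Which aligner and caller made them, with which versions, is not stated in these sources. The deposited signal per call is the authors' value with no stated scaling, and it was used to rank calls within a library. The -log10 q-values and -log10 IDR values were deposited by the authors and only described. Depth is unknown because the lists hold no read counts.

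Calls were overlapped, classified by summit (promoters first, then UTRs, then coding before other exons, then introns and the rest) and given hosts with Ensembl release 115 gene models (BDGP6.54, without transposable elements) in Python 3.11.15 with numpy 2.4.6, pandas 2.3.3 and scipy 1.17.1. Figures used matplotlib 3.10.9. Shares have Clopper-Pearson 95% intervals, and class shares were compared by Fisher's exact test with Benjamini-Hochberg adjustment over 14 tests. The steps were tested on simulated data with planted overlaps, classes and hosts. Of 941 symbols in gene lists, 6 were not found.

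The members and gene lists were chosen with earlier results of these data known. Named are CG32772, the 15 genes with the most shared calls, the hosts of the 15 shared calls and of the 15 coding exon calls of lowest summed rank, the hosts of the 5 highest GC contents, and up to 3 hosts per gene list. Exon lengths, transposable elements, chromosome shares, distances to thresholded summits, sharing by GC content and the genes under 2 kb of each list were looked at after the data were seen. Alternatives were other rank bands, overlaps, distances to thresholded peaks, promoter widths, class orders, windows and host rules, and each library alone.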

Additional observations from a re-analysis of the deposited data

How the results depend on the processing

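The coding exon share kept its direction against both comparisons and stayed past the threshold under every alternative that allowed a test, from 10.7% (promoters within 1000 bp) to 20.2% (coding exons first in the order of classes), and so did the promoter share, from 10.3% (promoters within 200 bp) to 30.3% (within 1000 bp). With 1 library alone there are no unshared calls, so those runs give only the comparison with thresholded peaks.

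The number of shared calls depends on the band of ranks: 385 for ranks 5001 to 10000 in both libraries and 1402 for ranks 10001 to 20000, because pairs that straddle the boundary drop out. Without a match in the other library, 13918 to 13926 calls remain. It was 3017 with a reciprocal overlap of 50%. The median GC content was 47.5% for ranks 5001 to 10000, 49.5% for ranks 10001 to 20000, 48.5% to 49.5% in each library alone and 47.5% over the whole called interval. All but the 48.5% of replicate 2 alone lay further from the reported 48.5% than the SD between the libraries' medians (0.700). That SD rests on 2 medians, 49.5% and 48.5%, and is smaller than the share of 1 base in a 101 bp window. It therefore cannot show whether these shifts are large. The share with a host was 69.8% for ranks 10001 to 20000 and 73.2% where 500 bp upstream counted as the gene. No paired analysis was possible because there is 1 group. Depth is unknown and there is no control library among the values, so the share of shared calls that would arise without the tagged protein could not be measured.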

Other observations

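The genes with the most shared calls per length were chosen after their values were seen. Among genes with at least 3, x16, which encodes a splicing factor of the SR family, had 3 in 5.91 kb of 2L (5.08 per 10 kb), 2 at promoters and 1 coding. Their median GC content was 63.4%, and the gene held no peak of the conservative joint list and no unshared call. CG8925 had 3 in 8.49 kb (3.54 per 10 kb), aos, a secreted inhibitor of EGFR signalling, 3 in 13.3 kb (2.26 per 10 kb, and also counted for CG33158, whose body holds aos), and fng 5 in 23.6 kb (2.12 per 10 kb) beside 1 unshared call. The transcription factor gene Ptx1 had 3 in 17.9 kb and neither a peak of the conservative joint list nor an unshared call. In all of these but x16 most shared calls were intronic.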
